A study of Mus musculus with 6 samples.

Results

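Cadherins and protocadherins were examined in pools of mouse dorsal root ganglion neurons. A gene belonged to the set if its platform symbol was Cdh followed by a number, Pcdh followed by a number, or Pcdha, Pcdhb or Pcdhg with an optional letter and a number. The symbols chose 55 genes of the 18193 that had a probe set with 1 symbol, and no measured value entered the choice. Of these, 5 were classical type I cadherins, 11 type II cadherins, 5 other cadherins, 11 non-clustered protocadherins, 22 clustered beta protocadherins and 1 a clustered gamma protocadherin. The alpha cluster entered through no member, because its 6 probe sets each carried 9 or 14 Pcdha symbols.

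Cadherins are membrane proteins whose extracellular repeats bind calcium and hold cells together, mostly by binding the same cadherin on the next cell. Classical type I and type II cadherins link to actin through p120-catenin, beta-catenin and alpha-catenin, and in the nervous system they sort neurons, guide axons and help place synapses. Protocadherins have a different intracellular part. Non-clustered delta protocadherins work mainly in axon growth, cell sorting and signalling to the actin skeleton, while each neuron draws its own combination from the clustered genes, which serves recognition between branches of the same cell. Sensory neurons of different kinds carry different sets of these proteins.

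Total RNA of pooled neurons, from normal or DiI-labelled ganglia, was measured on 6 Affymetrix arrays, 1 for every combination of 3 title codes with 2 size classes. L3-B pools held 50 control neurons, of big diameter in 1 array and of medium to small diameter in the other. In both other codes, L3-S and L6-R, a pool was of 20 neurons, again 1 array of either size class, and these neurons had been labelled retrogradely with DiI, a dye that travels from nerve endings to the cell body. The sources used here do not give the place of the DiI, the meaning of the codes, or the strain, age, sex and number of animals. Labelling and the number of neurons differ together between L3-B and the other codes and cannot be told apart. L6-R and L3-S both held pools of 20 neurons labelled with DiI and differed in code. Whether the place of the DiI also differed between them is not known.

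Values are the authors' linear signals, and 55.3% to 59.5% of an array's probe sets lay under 32, close to array background. Differences are of log2(signal + 32), given with the standard error (SE) of 1 additive limma fit of code and size class to all 6 arrays, with n = 2 arrays per code and 3 per size class. "Rose" and "fell" stand for an adjusted p under 0.05 over the 9097 genes tested, which were the upper 50% by mean log2 value. Since nothing ties the arrays of a code to separate animals, the p-values reflect the spread among these pools alone, which may be technical, and the number of arrays limits the precision. All 10 neuronal markers checked (Tubb3, Uchl1, Prph, Nefl, Snap25, Avil, Isl1, Pou4f1, Elavl4 and Rbfox3) had signals of at least 100 in every array. Summed signals of 9 glial markers were 10808 and 9161 (L3-B, big then medium to small), 9573 and 12912 (L3-S) and 11187 and 14146 (L6-R). Most of each sum came from S100b (4918 to 6832) and Pmp22 (2827 to 4305), so the sums hide larger differences of single markers. Sox10 had 38.7 and 7.36, 90.9 and 105, and 124 and 202 in the same order. Fabp7 had 272 and 250, 675 and 1766, and 499 and 1308. Summed signals of 6 connective tissue markers were 293 and 247, 536 and 527, and 828 and 1256 in the same order, while those of 6 vessel markers ran from 65.8 to 240 and those of 6 immune markers from 58.4 to 193. The Actb control signal near the 3' end over that near the 5' end, a measure of RNA and labelling quality, was 13.9 and 3.73 (L3-B), 5.42 and 12.0 (L3-S) and 8.31 and 8.42 (L6-R).

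Of the 55 members, 20 passed the filter and were tested, 20 were under 32 in all 6 arrays, and 20 reached 100 in at least 1 array. The delta-2 protocadherins, Pcdh8, Pcdh10, Pcdh17, Pcdh18 and Pcdh19, all passed the filter. So did 4 of 5 type I cadherins, 4 of 11 type II cadherins, 2 of 3 delta-1 protocadherins and 5 of 22 beta protocadherins. None of Cdh13, Cdh16, Cdh17, Cdh23, Cdh26, Pcdh12, Pcdh15, Pcdh20 and Pcdhgc4 did. A gene that passed the filter only through a code in which it is high had to differ between codes, so counts over the 20 describe those genes and not the family.

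L6-R was set against L3-S first. Among the tested members 1 rose, Pcdh19, and 1 fell, Pcdh8. Over all genes tested, 1.26% rose and 1.91% fell, so 1 of 20 in either direction is a small count that a single gene moves. Over all 55 members, dim ones included, the median difference was -0.11 (21 higher, 34 lower), beside -0.03 over all 18193 genes. Over the 20 tested it was 0.19 (12 higher, 8 lower), beside -0.01 over the genes tested, so the sign of the median turned with the filter.

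L3-S against L3-B gave 2 members that rose, Pcdh8 and Pcdh10, and none that fell. Over all genes, 0.923% rose and 0.0989% fell. The median over all 55 members was 0.13 (36 higher, 19 lower), beside 0.04 over all 18193 genes, and over the 20 tested it was 0.20, beside 0.03. L6-R against L3-B gave 4 members that rose, Pcdh10, Pcdh19, Cdh1 and Cdh4, and 1 that fell, Pcdh8, beside 4.66% rising and 2.85% falling over all genes. Over all 55 members the median was 0.02 (29 higher, 26 lower), beside -0.00 over all 18193 genes, while over the 20 tested it was 0.29, beside 0.02. These comparisons share arrays (L3-B in both, and each labelled code with the comparison of L6-R and L3-S), so they are not independent of each other.

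**Figure D1:**
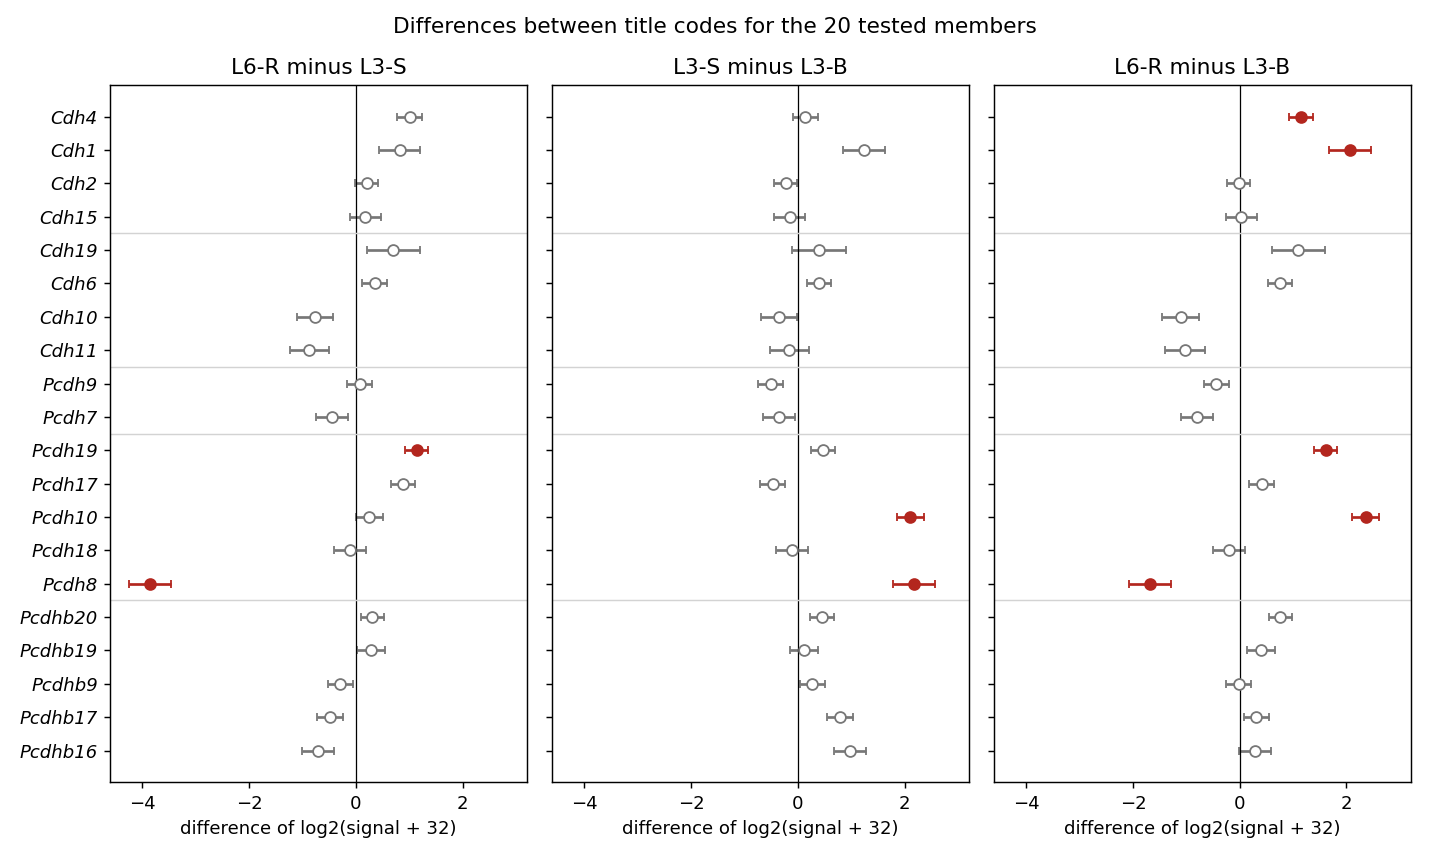
Difference of log2(signal + 32) between title codes (x axis) for the 20 tested members (y axis, grouped from the top as type I, type II, delta-1, delta-2 and beta), with bars of 1 SE. Filled red points have an adjusted p under 0.05: Pcdh8 falls at -3.86 in L6-R against L3-S, and Pcdh10 stands at 2.11 and 2.36 in L3-S and L6-R against L3-B.

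Pcdh8, the activity-induced protocadherin also called arcadlin, which acts at synapses and on the uptake of N-cadherin, separated all 3 codes. Its signals were 267 and 154 (L3-B, big then medium to small), 694 and 1541 (L3-S) and 23.9 and 65.5 (L6-R). The L3-S arrays were highest, the L6-R arrays lowest with the big pool under 32, and no codes overlapped. Pcdh8 fell by 3.86 ± 0.40 (SE) in L6-R against L3-S (adjusted p = 0.00208). The point estimate is 14.5-fold in signal + 32 and not in signal itself. With L6-R near background its size depends on the value added, at -4.67 with 1 added and -2.77 with 4 times 32 added. Big pools alone gave -3.70 and medium to small pools alone -4.01. It rose by 2.18 ± 0.40 in L3-S against L3-B (adjusted p = 0.0480) and fell by 1.68 ± 0.40 in L6-R against L3-B (adjusted p = 0.0394).

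The fall in L6-R against L3-S held in every setting with 1 value per gene (-4.67 to -2.77, adjusted p 4.81e-09 to 0.0249). Without an L3-S or L6-R array it was -4.38 to -3.33. Leaving out either L3-B array cannot move the estimate, since it repeats the fit to the L6-R and L3-S arrays alone (-3.86). The fall did not pass when all 45037 probe sets were tested, where no member did. The differences from L3-B were less firm. Without the L3-B medium to small array the difference of L3-S was 1.36 (adjusted p = 0.0617) and without the medium to small array of L3-S it was 1.65 (adjusted p = 0.0826), within a range of 1.33e-05 to 0.183 over all alternatives. Without the L3-B big array the difference of L6-R was -0.86 (adjusted p = 0.0961) and without the L6-R big array -1.38 (adjusted p = 0.164), within a range of 1.16e-05 to 0.164. Either call was also lost with no filter, with the mean of the probe sets and with a pseudocount of 1 or 4 times 32, and the rise also after quantile normalization. The probe set behind these values is of an x_at design, which can bind more than 1 transcript. The other Pcdh8 probe set, 1417051_at, had signals of 79.9 and 40.7 (L3-B), 153 and 308 (L3-S) and 10.5 and 20.3 (L6-R), the same order of codes. Pvalb, the calcium-binding protein of proprioceptors among other large sensory neurons, had the same order, with 723 and 756, 2084 and 3413, and 69.1 and 31.9. It was picked for that likeness, and its list was not alike. Of 6 tested markers of large-diameter neurons, 2 were higher and 4 lower in L3-S than in L3-B. Ntrk3 was highest in L3-B, with 2243 and 2087, 1155 and 791, and 505 and 448. Runx3, dim and not tested, was highest in L3-S, with 59.2 and 94.1. In pooled cells, fewer neurons of a kind and less RNA per neuron cannot be told apart.

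Pcdh10, also called OL-protocadherin, which binds the WAVE actin-regulating complex and is needed for the growth of some axons, was high in both labelled codes. Its signals were 18.4 and 30.1 (L3-B), 179 and 243 (L3-S) and 284 and 229 (L6-R). Both control arrays lay under 32, and every labelled array was far above them. Pcdh10 rose by 2.11 ± 0.25 in L3-S (adjusted p = 0.00978) and by 2.36 ± 0.25 in L6-R (adjusted p = 0.00114) against L3-B. With both control arrays near background the size is set by the value added before the log, so no fold is given: it was 3.09 and 3.38 with 1 added and 1.15 and 1.33 with 4 times 32 added. Between L6-R and L3-S it differed by 0.25 (adjusted p = 0.682). The rise in L6-R passed under every alternative with 1 value per gene (adjusted p 9.83e-07 to 0.0264). The rise in L3-S was lost with no filter on dim genes (adjusted p = 0.0584) and with the mean of the gene's probe sets (0.99, adjusted p = 0.0937), within a range of 1.82e-05 to 0.0937.

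Pcdh10 had 6 probe sets that were not alike. Probe set 1438134_at, with 18.7 and 19.8 (L3-B), 162 and 177 (L3-S) and 145 and 211 (L6-R), had differences of 1.97 and 2.02 from L3-B. Probe sets 1421311_at and 1425563_s_at were dimmer, with differences from L3-B between 0.49 and 1.06. Probe sets 1442565_at and 1444301_at stayed under 32 in every array.

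Pcdh19, an X-linked protocadherin that forms complexes with N-cadherin and whose human gene is mutated in an epilepsy of girls, was highest in L6-R. Its signals were 58.7 and 53.5 (L3-B), 105 and 76.9 (L3-S) and 274 and 203 (L6-R). In the probe set used the codes did not overlap, and L3-B and L3-S lay close together. Pcdh19 rose by 1.61 ± 0.22 in L6-R against L3-B (adjusted p = 0.00386) and by 1.14 ± 0.22 against L3-S (adjusted p = 0.0339), while L3-S and L3-B differed by 0.47 (adjusted p = 0.545). The rise over L3-B passed under every alternative with 1 value per gene (adjusted p 2.83e-05 to 0.0332). The rise over L3-S was lost when any L3-S or L6-R array was left out, with differences of 1.05 to 1.22 (adjusted p 0.0761 to 0.326), with no filter (adjusted p = 0.0787) and with a pseudocount of 1 or 4 times 32, within a range from 0.00150. Its other probe sets were alike in L6-R against L3-S, where 1444422_at differed by 1.28 and 1455145_at by 1.20. In both of them L3-B and L3-S overlapped. Probe set 1444422_at had 16.0 and 26.4 (L3-B) and 39.5 and 24.2 (L3-S), and 1455145_at had 58.5 and 75.1, and 78.5 and 66.7.

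The delta-2 genes Pcdh17 and Pcdh18 did not pass in any comparison. Pcdh17, which sits at synapses and moves with growing axons, had signals of 535 and 533 (L3-B), 312 and 452 (L3-S) and 694 and 745 (L6-R). L6-R was highest and L3-S lowest, with a difference of 0.88 ± 0.23 between them (adjusted p = 0.0954). A fit to the L6-R and L3-S arrays alone brought that difference past the threshold (adjusted p = 0.0395), and leaving out either L3-B array repeats that fit. The difference was 0.66 to 1.11 over its alternatives and did not pass with any L3-S or L6-R array left out. The other probe set of Pcdh17 differed by 0.68. Pcdh18 had 120 to 257 in all arrays, with the L3-B pools at either end of that range. Its dimmer probe set 1422890_at was not alike, with 19.7 and 24.2 (L3-B), 33.8 and 39.7 (L3-S) and 62.5 and 49.8 (L6-R). In L6-R against L3-B that probe set differed by 0.71 without passing, and the one used by -0.21.

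**Figure D2:**
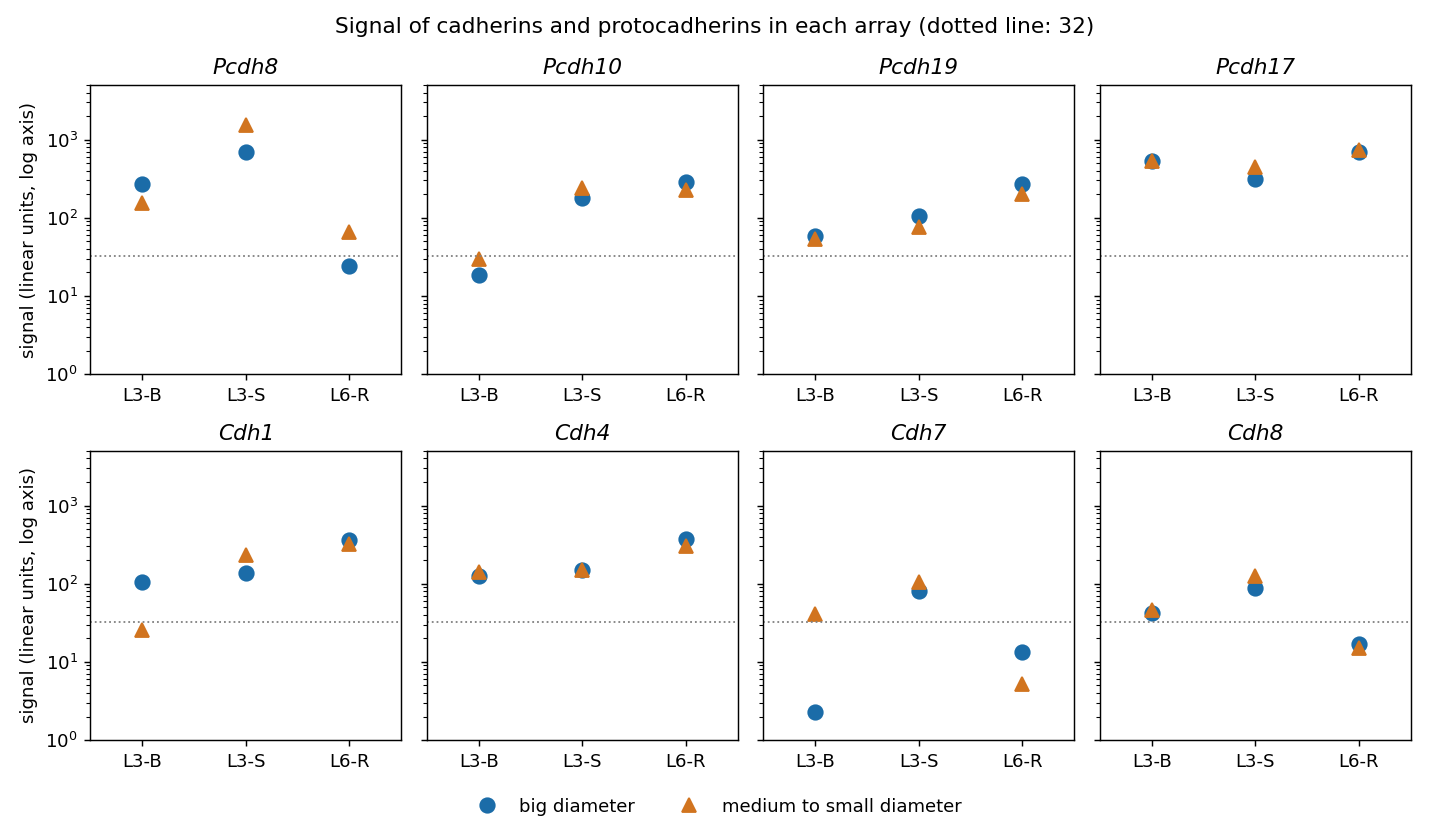
Signal in each array (y axis, linear units on a log scale) by title code (x axis) for 8 members, with circles for big and triangles for medium to small diameter pools and a dotted line at 32. Pcdh8, Cdh7 and Cdh8 peak in L3-S, Pcdh10 is under 32 in both L3-B arrays, and Pcdh19, Cdh1 and Cdh4 are highest in L6-R.

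The promoters of the 3 delta-2 protocadherins that changed are shown because these genes had 3 different patterns over the codes. Each is the 250 bases before the transcription start in RefSeq on GRCm38.p6, 5' to 3' on the gene's strand, with matches to searched motifs in capitals. Pcdh8 lies at chr14:79771313-79771562 (minus strand), Pcdh10 at chr3:45378148-45378397 (plus strand) and Pcdh19 at chrX:133688994-133689243 (minus strand).
Pcdh8: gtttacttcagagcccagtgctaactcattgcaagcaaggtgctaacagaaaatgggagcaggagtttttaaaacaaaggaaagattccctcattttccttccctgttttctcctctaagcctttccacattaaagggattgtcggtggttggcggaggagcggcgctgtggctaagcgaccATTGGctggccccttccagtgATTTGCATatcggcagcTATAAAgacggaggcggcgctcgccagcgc
Pcdh10: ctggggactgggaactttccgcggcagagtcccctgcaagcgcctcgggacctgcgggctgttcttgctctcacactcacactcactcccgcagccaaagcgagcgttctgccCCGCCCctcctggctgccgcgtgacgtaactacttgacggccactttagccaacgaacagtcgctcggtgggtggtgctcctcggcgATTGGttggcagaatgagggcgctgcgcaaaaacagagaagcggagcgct
Pcdh19: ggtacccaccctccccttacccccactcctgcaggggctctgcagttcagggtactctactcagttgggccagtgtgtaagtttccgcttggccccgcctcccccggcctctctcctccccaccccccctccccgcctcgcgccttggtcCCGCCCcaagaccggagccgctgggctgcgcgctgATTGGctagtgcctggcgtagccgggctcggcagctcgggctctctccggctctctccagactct

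The motifs searched, on either strand, were the TATA box TATAAA, the CCAAT box CCAAT, the octamer ATTTGCAT, which POU factors bind, the GC box GGGCGG, the cyclic AMP response element TGACGTCA, the AP-1 site TGANTCA and the Snail-type E-box CAGGTG. They do not overlap each other in these windows. The Pcdh8 window held a TATA box starting 30 bases before the start, an octamer at 47 and a CCAAT box at 68. Over 32851 RefSeq promoters of the same length, 12.4% held a TATA box, 1.60% an octamer and 33.8% a CCAAT box. The Pcdh10 and Pcdh19 windows held no TATA box or octamer, and each had a CCAAT box (at 50 and 65 bases) and a GC box (at 137 and 100 bases), which 32.7% of promoters hold. CpG dinucleotides numbered 11, 22 and 16 in Pcdh8, Pcdh10 and Pcdh19, beside a median of 6 over all promoters. No window held a cyclic AMP response element (1.55% of promoters), an AP-1 site (6.75%) or a Snail-type E-box (17.2%). A match describes the letters and is not evidence of binding. The promoter collection used here held entries for 20 of the 55 members, and Cdh1 and Cdh4 were not among them.

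Among classical type I cadherins, Cdh1 and Cdh4 rose in L6-R against L3-B. Cdh1, E-cadherin, known from epithelia and from small groups of sensory neurons and their glia, had signals of 106 and 25.7 (L3-B), 138 and 232 (L3-S) and 365 and 321 (L6-R). The L6-R arrays were above all others, and the L3-B arrays were below all others but far apart. Cdh1 rose by 2.07 ± 0.39 (adjusted p = 0.0157), and stood at 1.24 in L3-S against L3-B (adjusted p = 0.249) and 0.82 in L6-R against L3-S (adjusted p = 0.360). Its call was lost with no filter (adjusted p = 0.0673) and with a pseudocount of 1 (adjusted p = 0.0546), within a range from 4.30e-06. The size of the rise rested on the L3-B arrays: it was 2.82 without the big and 1.32 without the medium to small one. Cdh1 had 1 probe set.

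Cdh4, R-cadherin, first known from retina and able to pair with N-cadherin, had signals of 126 and 140 (L3-B), 149 and 149 (L3-S) and 368 and 301 (L6-R). L3-B and L3-S were nearly level, and both L6-R arrays were well above them. Cdh4 rose by 1.15 ± 0.23 in L6-R against L3-B (adjusted p = 0.0187). Against L3-S it differed by 1.01 ± 0.23 without passing (adjusted p = 0.0540), and it passed there after quantile normalization (adjusted p = 0.0490), when 2 members rose and 1 fell in that comparison. It also passed with the Actb covariate (adjusted p = 0.00439) and in a fit to the L6-R and L3-S arrays alone (adjusted p = 0.0200). Leaving out either L3-B array repeats that last fit. The difference did not pass with any L3-S or L6-R array left out, and was 0.85 without the L6-R big array. The rise over L3-B was lost without the L3-B big array (1.02, adjusted p = 0.0512), the L6-R big array (0.98, 0.259) or the L6-R medium to small array (1.31, 0.0762), within a range of 0.000943 to 0.259. With the mean of the probe sets of each gene the rise over L3-B was lost as well (0.71, adjusted p = 0.129). Probe set 1449422_at differed by 1.05 in L6-R against L3-S and by 0.83 against L3-B, and 1449637_at stayed under 32.

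Cdh2, N-cadherin, the main cadherin of neurons and a partner of Pcdh8 and Pcdh19, was level over the arrays. Its signals were 376 and 344 (L3-B), 307 and 299 (L3-S) and 326 and 382 (L6-R). Cdh2 differed by 0.20 in L6-R against L3-S (adjusted p = 0.716) and by -0.23 and -0.02 in L3-S and L6-R against L3-B. Cdh15, M-cadherin of muscle, had 41.4 to 99.5 and differences of at most 0.18 in size between codes. Cdh3, P-cadherin, was under 32 in all arrays.

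Type II cadherins gave no call among 4 tested genes. Cdh10 had signals of 178 and 395 (L3-B), 204 and 203 (L3-S) and 130 and 86.7 (L6-R). The L6-R arrays were lowest, with a difference of -0.77 from L3-S (adjusted p = 0.321) and -1.11 from L3-B (adjusted p = 0.0937). The difference from L3-S was -0.29 with the medium to small array of L6-R left out and -1.24 with the big one left out (adjusted p 0.0540 to 0.943 over its alternatives). Cdh11, which mesenchymal cells and some neurons carry, had 326 and 201, 231 and 222, and 65.7 and 173, and differed by -0.87 and -1.03. Only the big L6-R pool of Cdh11 lay far below the rest. Cdh6 had 86.7 and 77.1, 120 and 117, and 191 and 132, and stood at 0.75 ± 0.23 in L6-R against L3-B (adjusted p = 0.0959).

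Cdh19, a cadherin of Schwann cell precursors and other neural crest glia, had signals of 71.9 and 24.4 (L3-B), 98.5 and 46.4 (L3-S) and 67.2 and 241 (L6-R). The medium to small L6-R array was the highest, and that array also had the highest summed glial signal (14146). Mbp, a myelin protein, had 2857 there and 332 to 1179 in the other arrays. It was picked from the glial list, whose markers were not all alike. Sox10, Egr2, Pmp22, Gja1 and Kcnj10 were also highest in that array. S100b was lowest there, at 4918, and Fabp7 was highest in the medium to small L3-S array, at 1766. Mag was under 32 in every array. The part of glia in the Cdh19 signal was not tested. Cdh19 differed by 1.10 ± 0.50 in L6-R against L3-B (adjusted p = 0.246).

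Counts of markers in L6-R against L3-B stand beside 4.66% rising and 2.85% falling over all genes tested. Among the fixed glial markers 7 were tested, and 3 rose in L6-R against L3-B. These were Mbp by 2.13, the glial transcription factor Sox10 by 1.86 and the lipid-binding protein Fabp7 by 1.53. None passed in L3-S against L3-B (Fabp7 at 1.95, adjusted p = 0.0505) or in L6-R against L3-S. Both tested connective tissue markers also rose in L6-R against L3-B, Dcn by 2.13 and Col1a2 by 1.13. Of 6 tested markers of small-diameter sensory neurons, 3 rose in L6-R against L3-B, the heat channel Trpv1 by 3.36, the neuropeptide gene Tac1 by 5.02 and the sodium channel Scn10a by 1.62. Trpv1 and Tac1 also rose in L6-R against L3-S, by 2.24 and 1.55, and in L3-S against L3-B Tac1 rose by 3.47 (adjusted p = 0.00147). Of 6 tested markers of large-diameter neurons, Pvalb fell by 3.26, Ntrk3 by 2.11 and Scn1a by 1.10 in L6-R against L3-B and Ntrk2 rose by 1.64. Between L6-R and L3-S, Pvalb alone of these passed, at -5.07, and in L3-S against L3-B again Pvalb alone, at 1.81 (adjusted p = 0.0435). The part of these cell types in the differences of Pcdh8, Pcdh10, Pcdh19, Cdh1 and Cdh4 was not tested. Cdh5, the cadherin of vessel walls, was under 32 in all arrays. The vessel markers were not alike: Pecam1 had at most 24.9, while Cldn5 had 120 in the medium to small L6-R array and 20.3 to 39.7 elsewhere. Kdr was also highest in that array, at 59.0, and Flt1 in the big L3-B array, at 47.6.

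Cdh7 and Cdh8, type II cadherins of spinal and sensory neurons, lay below the filter and were highest in L3-S. They were picked after their values were seen. Cdh8 had signals of 41.9 and 45.7 (L3-B), 87.2 and 126 (L3-S) and 16.8 and 15.0 (L6-R). The codes did not overlap, in the order seen for Pcdh8, and both L6-R arrays were under 32. With no filter on dim genes Cdh8 differed by -1.52 ± 0.21 in L6-R against L3-S (adjusted p = 0.0452 over 18193 genes). In that fit Pcdh8 and Cdh8 were the 2 members of 55 that fell, beside 0.363% of all genes, and no member rose. Cdh7 had 2.30 and 41.3, 79.6 and 106, and 13.3 and 5.20, and differed by -1.60 (adjusted p = 0.121); its L3-B and L6-R arrays overlapped. A dimmer Cdh7 probe set, 1460045_at, had 31.8 and 48.5 in L3-S and at most 5.86 elsewhere. The other Cdh8 probe sets were near or under 32 throughout.

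**Figure D3:**
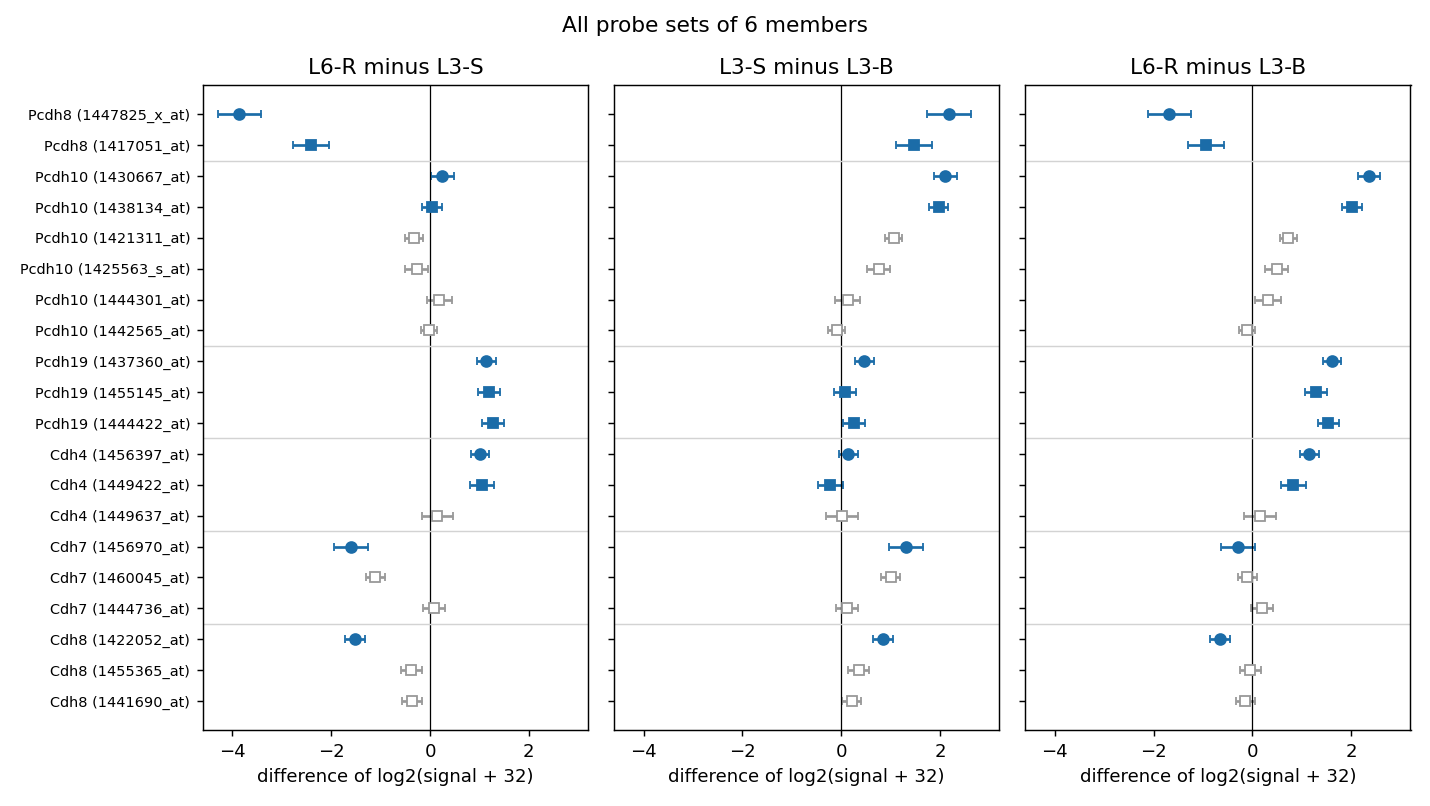
Difference of log2(signal + 32) between codes (x axis) for every probe set of 6 members (y axis), with bars of 1 SE from a fit to all probe sets. Circles are the probe sets used, squares the others, and open grey symbols never reached a signal of 100; the bright probe sets of Pcdh8, Pcdh19 and Cdh4 lie on the same side of 0 in L6-R against L3-S, with Pcdh8 at -3.86 and -2.41.

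Of the delta-1 protocadherins, Pcdh9 and Pcdh7 were tested and did not pass. Pcdh9, an adhesion protein of many neurons, had signals of 2340 and 3015 (L3-B), 1931 and 1775 (L3-S) and 1897 and 2006 (L6-R). Both L3-B arrays were above all labelled arrays, with differences of -0.51 in L3-S (adjusted p = 0.513) and -0.44 in L6-R (adjusted p = 0.320). The other bright probe set of Pcdh9, 1442659_at, differed by -0.42 and -0.10. There the big L3-B array (1268) lay below the medium to small L6-R array (1396). Pcdh7 had 260 and 495, 311 and 243, and 174 and 215. L6-R was lowest, at -0.80 ± 0.30 from L3-B (adjusted p = 0.162), and either L3-B array moved it: it was -1.24 without the big one (adjusted p = 0.0325) and -0.36 without the medium to small one (adjusted p = 0.524), within a range of 0.0260 to 0.552. Pcdh1 had at most 30.7.

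The 22 clustered beta protocadherins, which give neurons their individual surface codes, were mostly dim. Of them 10 were under 32 in every array, 18 never reached 100, and 5 passed the filter (Pcdhb9, Pcdhb16, Pcdhb17, Pcdhb19 and Pcdhb20). None of the 5 passed in any comparison. Pcdhb20 had 111 and 131 (L3-B), 154 and 201 (L3-S) and 200 and 256 (L6-R). Its L3-B arrays were lowest, and L6-R stood at 0.76 ± 0.22 from L3-B (adjusted p = 0.0764), with 0.70 and 0.82 in the 2 size classes. It passed with the mean of its probe sets (adjusted p = 0.0490), a setting that here changes other genes alone, since Pcdhb20 has 1 probe set.

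Pcdhb16 had 35.0 and 68.5 (L3-B), 116 and 146 (L3-S) and 89.2 and 49.4 (L6-R). L3-S was highest, at 0.98 ± 0.30 from L3-B (adjusted p = 0.227), and at 0.61 without the L3-B big array (adjusted p 0.0219 to 0.608 over its alternatives). Pcdhb17 had 24.2 and 55.4, 89.6 and 89.2, and 49.3 and 61.0, and was also highest in L3-S (0.79, adjusted p = 0.236). Pcdhb9 had 157 and 311, 216 and 345, and 146 and 322, and Pcdhb19 ran from 48.8 to 102. Beta genes are alike in sequence, so a probe set can also bind a neighbour's transcript.

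The 6 probe sets that carry several Pcdha symbols, 9 or 14 each, give many alpha genes together and name no single gene. The brightest, with 14 symbols, had 3185 and 3416 (L3-B), 2431 and 2562 (L3-S) and 3123 and 2674 (L6-R). It differed by -0.40 to 0.21 between codes. Another with 14 symbols, 1451769_s_at, had 618 and 716 (L3-B), 415 and 553 (L3-S) and 698 and 1022 (L6-R), and differed by 0.78 in L6-R against L3-S. The 4 brighter alpha probe sets were thus not alike, with differences from -0.45 to 0.78 over the code comparisons. The 1 gamma member, Pcdhgc4, had at most 16.3.

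**Figure D4:**
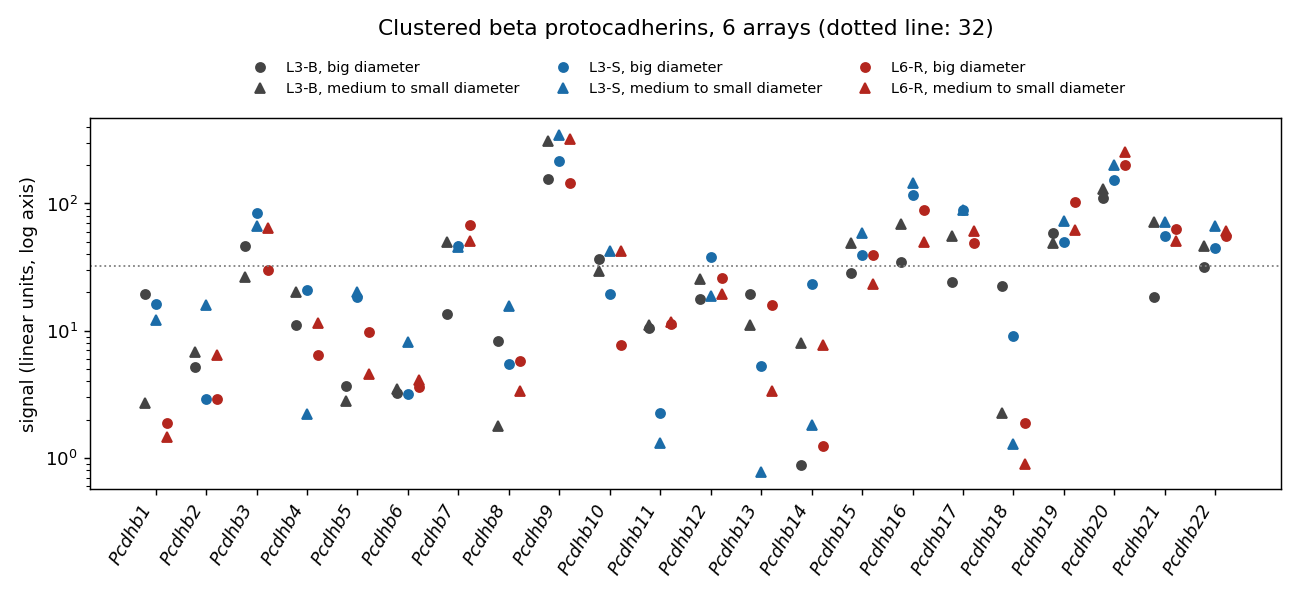
Signal of the 22 clustered beta protocadherins (y axis, linear units on a log scale) in the 6 arrays, with colours for title codes, circles for big and triangles for medium to small pools, and a dotted line at 32. Pcdhb9 and Pcdhb20 are at least 111 in every array, and the triangles of Pcdhb9 (311 to 345) lie above its circles (146 to 216).

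For size class, whose difference the additive fit takes as alike in every code, no member and no gene of the 9097 passed (limma, 0% higher and 0% lower), and 1 member and 320 genes had an unadjusted p under 0.05, by limma alone since no other tool was run. The tested members' median was -0.12, beside -0.02 over the genes tested, and that of all 55 was -0.02, beside 0.01 over all 18193 genes. The member was Pcdhb9, which was higher in the medium to small pool of every code, by 0.86 in L3-B, 0.60 in L3-S and 0.99 in L6-R. Its fitted difference, big minus medium to small, was -0.82 ± 0.19 (adjusted p = 0.998, 0.124 to 1.00 over its alternatives). Fitted differences of the other tested members ran from -0.41 in Pcdh8 to 0.26 in Pcdh19 and Cdh1. Within single codes the differences were larger and could be of opposite sign, from 1.26 in L3-B to -0.64 in L3-S for Cdh1 and from 0.88 in L3-B to -1.46 in L6-R for Cdh19, and the fitted values average over these.

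**Figure D5:**
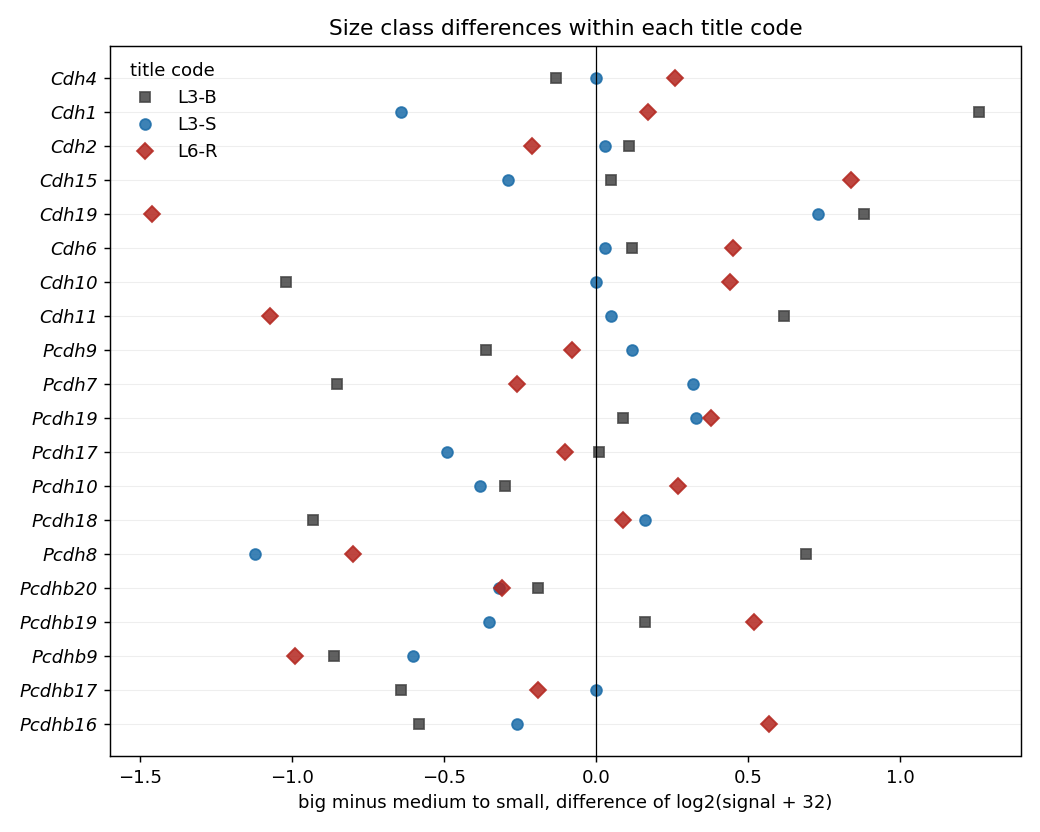
Difference of log2(signal + 32), big minus medium to small (x axis), within each title code for the 20 tested members (y axis); each point is the difference of 1 array from another. The 3 points of Pcdhb9 lie together at -0.99 to -0.60, and those of Cdh19 run from -1.46 in L6-R to 0.88 in L3-B.

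Partner genes were counted from fixed lists. Over all genes tested, 4.66% rose and 2.85% fell in L6-R against L3-B. The shares were 1.26% and 1.91% in L6-R against L3-S, and 0.923% and 0.0989% in L3-S against L3-B. In lists this short, few or no calls are likely at such shares, so the counts describe single genes. Of 12 tested catenins and junction linkers, 0 passed in L6-R against L3-S and in L3-S against L3-B, while 3 rose and 1 fell in L6-R against L3-B. The actin linker Vcl had 781 and 832 (L3-B), 916 and 1231 (L3-S) and 2178 and 1905 (L6-R), and rose by 1.30 (adjusted p = 0.0141). The alpha-catenin Ctnna1 rose by 1.27 (adjusted p = 0.0440), the adhesion protein Nectin3 by 1.21 (adjusted p = 0.0330), and the p120 relative Pkp4 fell by 0.88 (adjusted p = 0.0468). Beta-catenin, Ctnnb1, was level at 4595 to 4750. In L6-R against L3-S, Vcl stood at 0.92 and Pkp4 at -0.72. In L3-S against L3-B, Pkp2 stood at 0.72 and Ctnna2 at -0.43, none of them past the threshold.

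Of 10 tested genes of the wider cadherin superfamily, the synaptic calsyntenin Clstn3 fell in L6-R against L3-S. Clstn3 had 118 and 89.6 (L3-B), 182 and 140 (L3-S) and 52.3 and 42.1 (L6-R), the order seen for Pcdh8, and differed by -1.28 (adjusted p = 0.0192). Pcdh11x, a delta-1 protocadherin whose symbol lies outside the rule, had 31.8 and 56.9, 118 and 153, and 196 and 214. It rose by 1.66 in L6-R against L3-B (adjusted p = 0.00368) and stood at 1.15 in L3-S (adjusted p = 0.0633). Cdhr1, photoreceptor cadherin, rose by 1.36 in L6-R against L3-B (adjusted p = 0.0121) and stood at 1.06 in L3-S (adjusted p = 0.105).

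Of 14 tested signalling partners, 3 rose and 1 fell in L6-R against L3-B, beside 4.66% and 2.85% over all genes tested. In either other code comparison 0 passed. Wasf2, a WAVE protein, rose by 1.51 (adjusted p = 0.0141), Cyfip2, a WAVE complex subunit, by 0.97 (adjusted p = 0.0421) and the phosphatase Ptpn1 by 1.22 (adjusted p = 0.0181). The growth factor receptor Fgfr1, which N-cadherin engages, had 967 and 783 (L3-B), 462 and 399 (L3-S) and 127 and 251 (L6-R), and fell by 2.09 (adjusted p = 0.00484). Fgfr1 stood at -1.12 and the kinase Ptk2b at 1.10 in L6-R against L3-S, and Fgfr1 at -0.97 and Cyfip2 at 0.73 in L3-S against L3-B, none past the threshold.

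None of 6 tested genes for cleavage of cadherins passed. The sheddase Adam10 stood at 0.57 and the presenilin Psen2 at 0.46 in L6-R against L3-B, Aph1a at -0.46 and Psen2 at 0.45 in L6-R against L3-S, and the gamma-secretase subunits Aph1a at 0.66 and Aph1b at 0.65 in L3-S against L3-B. Of 10 tested genes for the choice of clustered promoters, the cohesin subunit Stag1 (0.89, adjusted p = 0.0451) and the cohesin loader Nipbl (0.96, adjusted p = 0.0423) rose in L6-R against L3-B, with no call between the other codes. Nipbl at 0.72 and Stag1 at 0.64 in L6-R against L3-S, and Smc3 at 0.47 and Rad21 at -0.34 in L3-S against L3-B, did not pass. The architectural factor Ctcf, which sets the promoter choice of clustered protocadherins, ran from 159 to 278. No partner gene passed for size class, where Ctnna1 (0.54), Nectin3 (-0.31), Fat1 (-0.40), Cdhr1 (-0.35), Baiap2 (0.37), Ptpra (-0.27), Furin (0.20), Aph1b (-0.19), Smc3 (0.30) and Smchd1 (0.20) had the smallest p of their lists.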

How the data were processed

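Per the labels, total RNA of 6 neuron pools was measured. The deposited series table holds 45037 probe sets and 64 control probe sets, whose values, as the authors left them, are intensity on a linear signal scale. Each array's mean after trimming 2% at either end was 150, so the values were taken as already scaled and were not normalized again; the sources used here do not give the summary and scaling methods.

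Control probe sets and those with several symbols (932) or none (9160) were left out. Each gene took its probe set with the highest mean log2(signal + 32). Symbols matched a current gene table by gene ID for 55 of 55 members, with 0 changed. R 4.3.3 with limma 3.58.1 (lmFit, eBayes, two-sided, Benjamini-Hochberg) fitted code and size class with 2 residual and 6.46 prior degrees of freedom. An interaction leaves no residual, so differences between codes were taken as alike in both size classes. The code of the fit was also run on simulated independent values with large set differences. That run does not bear on the calls made here.

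Named members were those past the threshold and, per comparison and direction, up to 4 others with the smallest p that differed by at least 0.5 in every matched pair and reached a signal of 100. Of each partner list, genes past the threshold or, where none passed, the 2 with the smallest p were named. Members and lists were chosen with earlier results of these data known. Alternatives were no filter, a pseudocount of 1 or 4 times 32, quantile normalization, averaging the probe sets of each gene, the Actb ratio as a covariate, fits to fewer arrays or terms, each array left out and, chosen after seeing the data, every probe set tested. With an array left out, probe sets and filter stayed as chosen on all 6, and a code's lone array was assumed to vary like the others. Leaving out an array of the code not compared gives the same fit as using only the arrays of the codes compared. For size class, leaving out either array of a code gives the same fit. Such settings are not separate checks. Background correction and scan batches could not be varied from this table.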

Additional observations from a re-analysis of the deposited data

Results flagged for a closer look

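Size class differences (big minus medium to small, log2(signal + 32)) had opposite signs between codes, by at least 0.5 either way, in 5 tested members. Each value is the difference of 1 array from another, and the difference between codes was not tested. Cdh1 stood at 1.26 in L3-B, -0.64 in L3-S and 0.17 in L6-R. Cdh11 stood at 0.62, 0.05 and -1.07, and Cdh19 at 0.88, 0.73 and -1.46, in the same order. Pcdh8 stood at 0.69, -1.12 and -0.80, and Pcdhb16 at -0.58, -0.26 and 0.57.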

How the results depend on the processing

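The count of members past the threshold moved with the setting. In L6-R against L3-S it was 2, and 1 with a pseudocount of 1 or 4 times 32, 5 with an Actb covariate, 4 with only the arrays of both codes, 0 with every probe set tested, and 1 to 4 with an array left out. In L3-S against L3-B it was 2, and 1 with quantile normalization or a pseudocount of 1 or 4 times 32, 0 with no filter, with the mean of the probe sets or with every probe set tested, 5 with the Actb covariate, and 1 to 3 with an array left out. In L6-R against L3-B it was 5, and 3 with a pseudocount of 1 or no filter, 10 with the Actb covariate and 2 with every probe set tested; it was 5 to 7 with an array left out. It was 0 for size class in every setting run. The Actb covariate leaves 1 residual degree of freedom, and other causes were not tested.

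Over all genes the Actb covariate raised the calls from 289 to 994 in L6-R against L3-S, from 93 to 512 in L3-S against L3-B and from 683 to 1590 in L6-R against L3-B. No named member changed sign in any setting. Of the named members' values under settings other than leaving out an array, 92 stayed on their side of the threshold, 17 fell short and 10 newly passed; with an array left out, 86 stayed, 11 fell short and 5 newly passed. Some of these settings are the same fit, such as leaving out either array of a code not compared, so the totals count some fits more than once. No paired analysis was possible because the labels give no replicate numbers shared between groups. Size class stood in the model in their place. Depth is unknown for arrays, and signals under 32 cannot be ordered.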
